A study of Mus musculus with 8 samples.

Results

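The comparison described here is that of *Fire*Δ/Δ with *Fire*+/+ oligodendrocytes in the mouse hippocampus. *Fire*Δ/Δ mice, labelled KO, lack the fms-intronic regulatory element, an enhancer within *Csf1r*, and have no microglia in the brain. *Fire*+/+ mice, labelled WT, are controls bred from heterozygous crossings on a mixed CBA and C57BL/6J background. All mice were female, and the deletion is germline, so every cell of the animal carries it. Members were all oligodendrocytes of the 4 hippocampus libraries in the deposited matrix, 8138 of the 12581 cells of the series. They came from *Fire*+/+ mouse 1 (2373 cells) and *Fire*Δ/Δ mouse 3 (2784 cells), which shared batch 3 and were 1 month and 18 days old, and from *Fire*+/+ mouse 4 (1047 cells) and *Fire*Δ/Δ mouse 6 (1934 cells), which shared batch 5 and were 1 month and 16 days old. Each mouse gave 1 library, so each genotype had 2 replicates, and genotypes were compared within batches. The other 4443 cells came from the cortex of the same mice.

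Oligodendrocytes wrap axons of the central nervous system in myelin, a lipid-rich membrane held together by proteins such as MBP. Microglia, the resident macrophages of the brain, need signalling through the receptor encoded by *Csf1r*. They exchange growth factors and cytokines with oligodendrocytes, which can respond to injury, ageing and inflammation by transcribing complement, serpin and antigen presentation genes.

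Median depth was 9377 and 13243 UMIs per cell in the *Fire*+/+ libraries and 9579.5 and 10794 in the *Fire*Δ/Δ libraries, and median mitochondrial shares lay between 4.54% and 5.07%. *Csf1r* UMIs fitted the labelled genotypes: 162 and 72 UMIs were found in the *Fire*+/+ libraries and 3 in each *Fire*Δ/Δ library. Oligodendrocyte identity was checked with the 16 core myelin genes, all of which passed the 5% detection filter. RNA of other cells was present. The summed level of the 11 microglial markers was 0.775 and 0.523 normalized UMIs per cell in *Fire*+/+ mice and 0.166 and 0.130 in *Fire*Δ/Δ mice, with *Tmem119* listed at 0 in both *Fire*Δ/Δ libraries. A UMI of one of these markers was found in 56.2% and 53.5% of *Fire*+/+ cells and in 16.5% and 15.2% of *Fire*Δ/Δ cells. The most often detected marker alone was in 24.0% and 23.4% of *Fire*+/+ cells and in 15.5% and 14.3% of *Fire*Δ/Δ cells. The median marker was in 5.31% and 5.73% against 0.0718% and 0.103%, so most of the *Fire*Δ/Δ share came from 1 marker. Erythrocyte markers summed to 9.98 and 0.245 in *Fire*+/+ mice and 6.93 and 1.74 in *Fire*Δ/Δ mice, and a haemoglobin UMI was found in 30.6%, 33.2%, 44.5% and 37.5% of the cells of mice 1, 4, 3 and 6. There were 7 barcodes that occurred in more than 1 hippocampus library.

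Levels below are means over a library's cells of log2(normalized UMIs + 1), and differences are *Fire*Δ/Δ minus *Fire*+/+ on that scale, averaged over both batches, with the SE of the limma fit. Because many cells hold no UMI of a given gene, such a difference understates the fold change of the gene, and fold changes are given from the mean normalized UMIs. Across 9141 genes tested with limma and batch as a block, 31 passed a Benjamini-Hochberg adjusted p of 0.05, which is 0.339% of those tested. Of these, 26 were higher (0.284%) and 5 lower (0.0547%) in *Fire*Δ/Δ mice. The libraries of one genotype did not overlap those of the other for 30 of the 31 genes; among all tested genes, 9.3% were higher and 11.3% lower in *Fire*Δ/Δ mice without overlap. At an unadjusted p under 0.05 there were 409 higher (4.47%) and 470 lower (5.14%) genes. Each of the 31 genes was also called when cells with a haemoglobin UMI, or cells with a microglial marker UMI, were left out. The number of calls depended on the error model: it was 60 in edgeR (0.656%), 78 in DESeq2 and 3 (*C4b*, *Serpina3n* and *Klk6*) without the batch block, and no gene passed without the variance trend or without the detection filter.

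The 2 largest differences were those of *C4b*, a component of the classical and lectin complement pathways, and *Serpina3n*, a secreted serine protease inhibitor. *C4b* (chr17:34728380-34743882 in GRCm38, minus strand) had a level of 0.046 and 0.13 in *Fire*+/+ mice 1 and 4 and of 1.74 and 1.38 in *Fire*Δ/Δ mice 3 and 6. Both *Fire*Δ/Δ libraries were thus far above both controls, with a difference of 1.47 ± 0.09 (SE, n = 2 per genotype; limma adjusted p = 0.00514). The adjusted p of *C4b* was 0.353 without the variance trend, 0.0820 without the filter and 0.282 with a robust prior variance in limma, and 0.0153 in edgeR. Mean normalized UMIs were 101-fold higher in batch 3 and 23.3-fold higher in batch 5. A *C4b* UMI was found in 4.34% and 11.8% of *Fire*+/+ cells and in 62.1% and 53.3% of *Fire*Δ/Δ cells. When cells were thinned to 5000 UMIs these shares were 2.60% and 6.39% against 56.5% and 46.6%. *C4b* has a near-identical neighbour, *C4a*, and reads that fit both could be lost or misplaced in counting.

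*Serpina3n* (chr12:104406729-104414329, plus strand) had a level of 0.012 and 0.057 in *Fire*+/+ mice and of 0.82 and 0.68 in *Fire*Δ/Δ mice, a difference of 0.71 ± 0.04 (limma adjusted p = 0.00514; 0.353 without the variance trend, 0.0536 without the filter, 0.0960 with a robust prior variance). The groups did not overlap, and the fold change was 145 in batch 3 and 23.2 in batch 5. The larger folds of batch 3 went with lower control levels, since *Fire*+/+ mouse 1 had 36 UMIs of *Serpina3n* in all its cells and *Fire*+/+ mouse 4 had 107 in fewer cells.

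The 300-base windows around the start sites of called genes were searched for motifs of factors on the STAT3 list, because *Stat3* and *Cebpd* were themselves among the genes that rose. RefSeq (GRCm38.p6) windows, from 250 bases before to 50 bases after the start, were found for 19 of the 26 raised genes. A STAT motif, TTCNNNGAA on either strand, was in none of the 19 and in 9.55% of all 27025 genes with a window. A C/EBP motif, TTGCNNAA, was likewise in none of the 19 and in 12.2% of all genes. The CArG box, bound by serum response factor at actin genes, was in the window of *Rhoj* alone among the 19 and in 1.81% of all genes. The absence of a match says only that these letters are not in the windows. Shown are the windows of *Serpina3n* (chr12:104406458-104406757, plus strand), the most raised gene with a window, of *Stat3* (chr11:100939491-100939790, minus strand) and of *Rhoj* (chr12:75308063-75308362, plus strand), with the CArG match in capitals.
Serpina3n: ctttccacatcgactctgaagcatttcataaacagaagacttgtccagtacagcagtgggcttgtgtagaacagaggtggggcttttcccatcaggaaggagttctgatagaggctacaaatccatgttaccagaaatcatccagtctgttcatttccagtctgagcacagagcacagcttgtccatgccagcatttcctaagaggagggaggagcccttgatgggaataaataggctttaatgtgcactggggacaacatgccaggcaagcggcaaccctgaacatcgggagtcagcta
Stat3: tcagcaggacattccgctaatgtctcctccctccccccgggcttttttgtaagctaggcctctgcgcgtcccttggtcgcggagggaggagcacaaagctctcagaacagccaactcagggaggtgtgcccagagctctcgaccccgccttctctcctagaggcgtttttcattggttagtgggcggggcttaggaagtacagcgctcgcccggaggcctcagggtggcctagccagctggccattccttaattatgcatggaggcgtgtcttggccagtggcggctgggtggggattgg
Rhoj: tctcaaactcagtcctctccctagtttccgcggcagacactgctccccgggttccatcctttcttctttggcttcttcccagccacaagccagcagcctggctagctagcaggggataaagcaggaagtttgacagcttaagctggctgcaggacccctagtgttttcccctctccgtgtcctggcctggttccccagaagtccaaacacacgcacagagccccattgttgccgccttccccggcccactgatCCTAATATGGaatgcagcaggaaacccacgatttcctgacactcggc

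**Figure D1:**
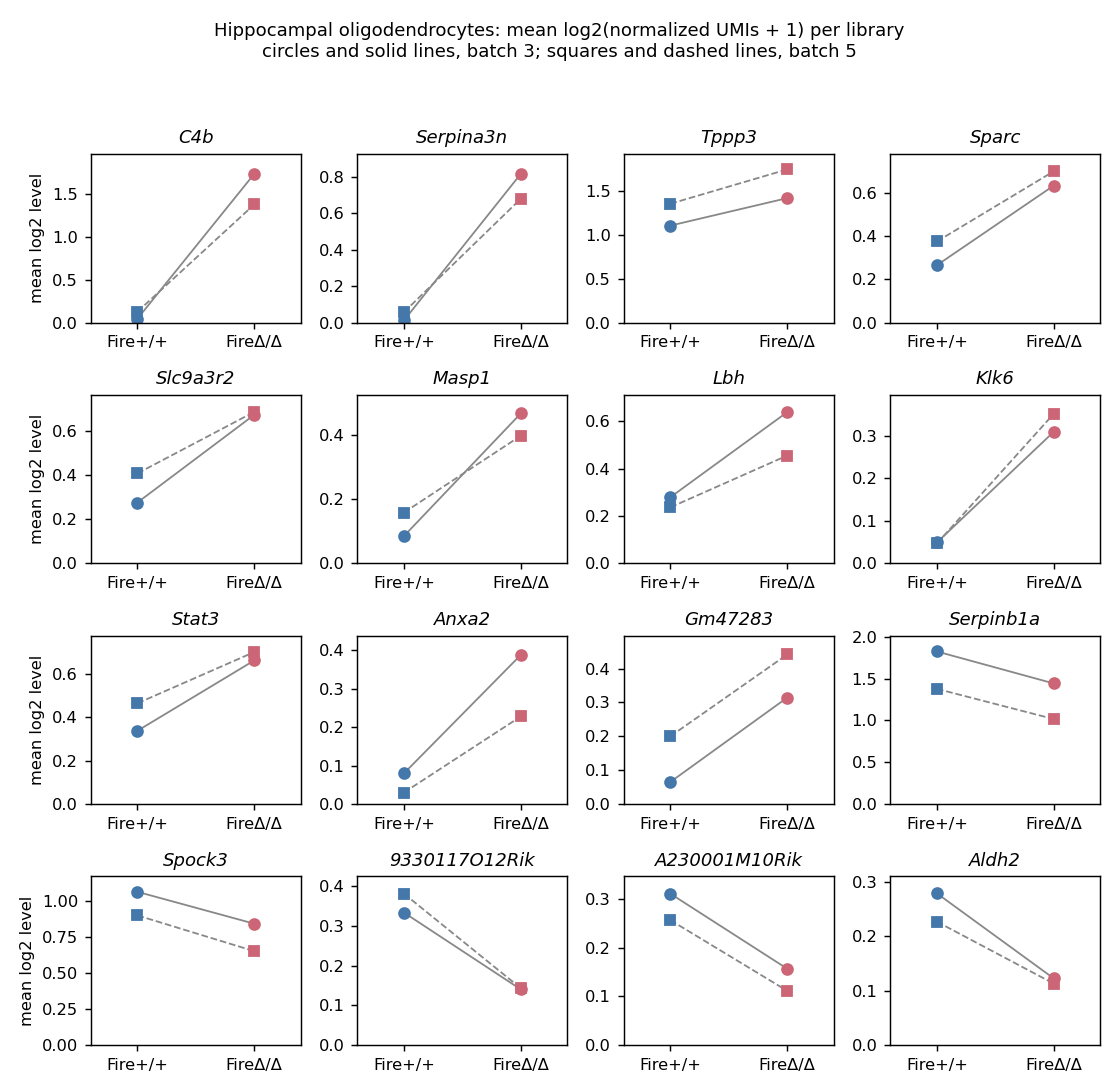
Mean log2(normalized UMIs + 1) per library (y axis, from 0) in *Fire*+/+ and *Fire*Δ/Δ hippocampus for the 11 most raised and the 5 lowered genes past the threshold, with lines joining the libraries of a batch. Both lines run the same way in each panel, and only for *Serpinb1a* does a library of one genotype (mouse 4, 1.38) fall within the range of the other.

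Complement and protease inhibitor lists each held 1 or 2 calls, against 0.339% of all tested genes called. All gene lists were written with earlier results of these data known, so such counts do not test a list. Of 20 complement components and regulators, 4 were tested and all 4 had positive differences (44.1% of all tested genes did), but *C4b* alone passed the threshold. *Cd59a*, an inhibitor of the membrane attack complex, had a difference of 0.28 ± 0.07 (limma adjusted p = 0.236), with 0.44 in batch 3 and 0.12 in batch 5. *Masp1*, a protease of the lectin pathway, was not on that list but rose. Its level was 0.085 and 0.16 in *Fire*+/+ mice and 0.47 and 0.40 in *Fire*Δ/Δ mice, a difference of 0.31 ± 0.03 (limma adjusted p = 0.0309). Among 5 tested serpins, *Serpina3n* rose and *Serpinb1a*, an intracellular inhibitor of neutrophil proteases, fell. The level of *Serpinb1a* was 1.82 and 1.38 in *Fire*+/+ mice and 1.44 and 1.02 in *Fire*Δ/Δ mice. Libraries overlapped between batches, but the genotypes differed by −0.38 in batch 3 and −0.36 in batch 5 (limma adjusted p = 0.0314).

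Of the gp130, JAK and STAT3 list, 11 genes were tested and 10 had positive differences (44.1% of all tested genes did). The threshold was passed by 2 of them, against 0.339% of all genes. Earlier results of these data were known when the list was written, so this contrast is no test of the pathway. *Stat3*, the transcription factor activated by cytokines of the interleukin-6 family, had a level of 0.34 and 0.46 in *Fire*+/+ mice and 0.66 and 0.70 in *Fire*Δ/Δ mice, a difference of 0.28 ± 0.03 (limma adjusted p = 0.0269). *Cebpd*, a transcription factor induced by STAT3 signalling, had 0.044 and 0.046 against 0.32 and 0.24, a difference of 0.23 ± 0.02 (limma adjusted p = 0.0236). For both genes the *Fire*Δ/Δ libraries lay above the controls. *Socs3*, the feedback inhibitor of the pathway, had 0.00082 and 0.0029 against 0.16 and 0.076, a difference of 0.12 ± 0.02 that missed the threshold in limma (adjusted p = 0.0937) and passed it in edgeR on UMI sums (adjusted p = 0.00436). The receptor subunits *Il6st* and *Lifr* and the kinases *Jak1* and *Jak2* had differences between −0.03 and 0.04, none past the threshold. The median over the list was 0.029, against −0.0022 over all tested genes. Without cells of the authors' cluster Oligo1 it was 0.0085, against −0.0032 over all tested genes. In that fit 7 of the 11 genes were above 0, and 1 passed, against 0.0875% of all genes.

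*Anxa2*, which links membranes to actin, had 0.080 and 0.030 in *Fire*+/+ mice and 0.39 and 0.23 in *Fire*Δ/Δ mice, a difference of 0.25 ± 0.03 (limma adjusted p = 0.0286). It was the only one of 9 annexins and S100 genes past the threshold in limma, which 0.339% of all tested genes passed. *Anxa4* and *S100a6* joined it in edgeR (adjusted p = 0.0476 and 0.0180), where 0.656% of all tested genes passed. Of 18 actin cytoskeleton genes, *Tagln2*, an actin-bundling protein, rose by 0.091 ± 0.010 (limma adjusted p = 0.0414). *Flnc* and *Arpc1b* had differences of 0.11 and 0.24 and passed in edgeR only (adjusted p = 0.00886 and 0.0354). Of the 18 actin cytoskeleton genes, 12 had positive and 6 negative differences. The lowest was that of *Actb*, an actin itself, at −0.22 ± 0.11 (limma adjusted p = 0.599). *Rhoj*, a small GTPase that acts on actin, rose by 0.19 ± 0.01, and *Sparc*, a matrix glycoprotein, by 0.35 ± 0.02, each with limma adjusted p = 0.00514. *Klk6*, a secreted protease that marks a mature oligodendrocyte subtype, had 0.049 and 0.047 in *Fire*+/+ mice and 0.31 and 0.35 in *Fire*Δ/Δ mice, 14.3-fold and 12.5-fold more normalized UMIs in batches 3 and 5. It was the only one of 12 subtype markers past the threshold, against 0.339% of all tested genes. The others included *Il33*, a nuclear alarmin, with 0.05 in batch 3 and 0.27 in batch 5, and *Ptgds*, with −0.15 ± 0.07, neither past it. *Tppp3*, a tubulin polymerization protein, rose by 0.35 ± 0.04 (limma adjusted p = 0.0470). *Snx10*, a sorting nexin of endosomes, and the neighbouring membrane protein genes *Tmem176a* and *Tmem176b*, whose annotated spans overlap on opposite strands, rose by 0.15, 0.067 and 0.11. Also past the threshold were *Slc9a3r2*, a scaffold protein, *Lbh*, a transcription cofactor, *Adamtsl1*, a matrix protein, and *Cela1*, an elastase, higher by 0.34, 0.29, 0.18 and 0.18, and *Crip2*, *Itih5* and *Lhfpl3*, higher by 0.096, 0.073 and 0.071.

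Antigen presentation and interferon genes held a single call, against 0.339% of all tested genes called. *H2-D1*, a classical MHC class I heavy chain, had 0.040 and 0.075 in *Fire*+/+ mice and 0.15 and 0.16 in *Fire*Δ/Δ mice, a difference of 0.098 ± 0.009 (limma adjusted p = 0.0260). It was the only one of 6 tested genes of the MHC class I list past the threshold, and reads of the closely related class I genes cannot be told apart with certainty. *B2m*, its light chain, had a difference of 0.01 ± 0.02. None of 5 interferon response genes passed, the largest difference being 0.18 ± 0.03 for *Ifi27* (limma adjusted p = 0.109).

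The genes that fell besides *Serpinb1a* were *Spock3*, a matrix proteoglycan, *Aldh2*, the mitochondrial aldehyde dehydrogenase, and the non-coding RNAs *A230001M10Rik* and *9330117O12Rik*. *Spock3* had 1.06 and 0.90 in *Fire*+/+ mice and 0.84 and 0.65 in *Fire*Δ/Δ mice, a difference of −0.24 ± 0.03 (limma adjusted p = 0.0415). *Aldh2* had 0.28 and 0.23 against 0.12 and 0.11, and *A230001M10Rik* 0.31 and 0.26 against 0.16 and 0.11. For these 3 genes, both *Fire*Δ/Δ libraries were below both controls. Larger decreases that missed the threshold were those of *Pex5l*, a channel regulator (−0.89 in batch 3 and −0.37 in batch 5; limma adjusted p = 0.162), and *Glul*, glutamine synthetase (−0.76 and −0.34; limma adjusted p = 0.181). The largest increase that missed it was that of the nuclear non-coding RNA *Neat1*, with 0.50 in batch 3 and 1.18 in batch 5 (limma adjusted p = 0.112). In all 3 the sign was the same in both batches and the sizes were not.

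**Figure D2:**
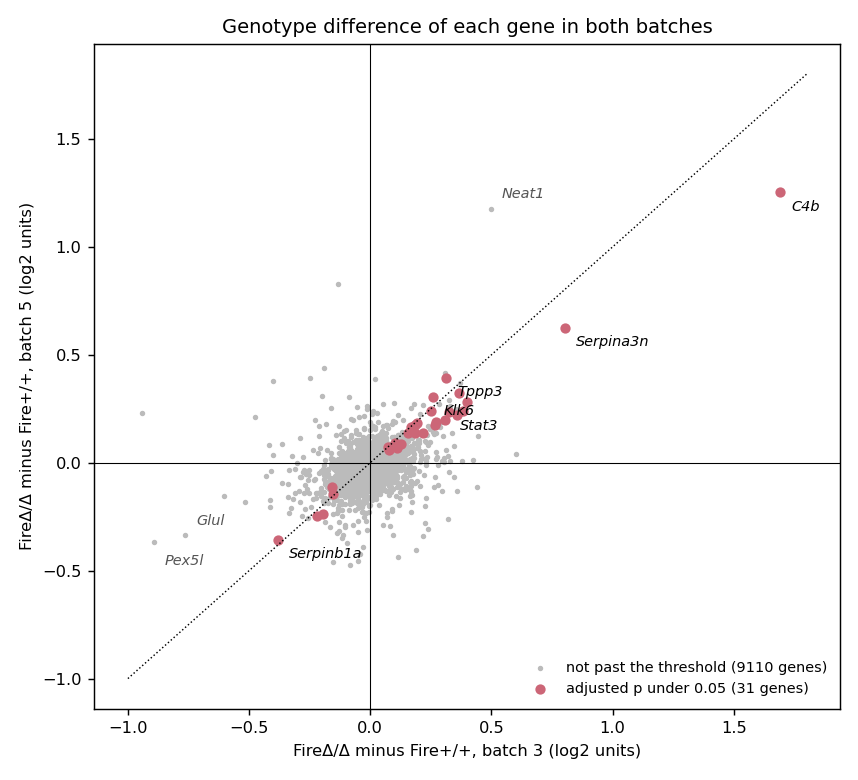
Each point is 1 of 9141 tested genes, with the genotype difference in batch 3 on the x axis and in batch 5 on the y axis (log2 units), red where the adjusted p was under 0.05, and the dotted line marks equal differences. All 31 red genes have the same sign on both axes, among them *C4b* at 1.69 and 1.25, and *Neat1* (0.50 and 1.18), *Pex5l* and *Glul*, not called, do so too.

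Over all tested genes, the differences of both batches, which share no library, had a Pearson r of 0.363 and a Spearman correlation of 0.222 (9141 genes, which are not independent replicates), and r was 0.265 without the 31 genes. For 26 of the 31 genes the difference was larger in batch 3 than in batch 5. Among the exceptions were *Klk6*, with 0.26 and 0.30, and *Tppp3*, with 0.31 and 0.39.

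Lists of myelin, lipid and stress genes held 1 call, which with 0.339% of all tested genes called is near the background for lists of this size. None of 16 core myelin protein genes passed, 8 had positive differences, and the median was −0.0046. *Mbp* had −0.04 ± 0.07, and *Cldn11* had the largest increase, 0.24 ± 0.08 (limma adjusted p = 0.438). None of 12 lineage transcription factors passed, among them *Olig2* (−0.02 ± 0.03), *Sox10* (0.03 ± 0.05) and *Myrf* (0.06 ± 0.05), nor did any of 9 newly formed oligodendrocyte genes. Of 20 cholesterol synthesis genes, 16 had positive differences (44.1% of all tested genes did) with a median of 0.062, but none passed, 7 were higher in both batches (23.6% of all tested genes), and the median was 0.11 in batch 3 and −0.0081 in batch 5. *Hmgcs1*, which starts the pathway, had 0.14 ± 0.10 and *Sqle* 0.13 ± 0.05. In 14 genes of cholesterol transport, *Abca8a*, a lipid transporter, rose by 0.16 ± 0.02 (limma adjusted p = 0.0415), whereas *Apoe* had −0.94 in batch 3 and 0.23 in batch 5. None of the 8 SREBP and LXR genes, 15 fatty acid synthesis genes, 8 galactolipid synthesis genes or 13 lipid droplet genes passed in limma. In edgeR, 1 lipid droplet gene and 1 lysosomal gene passed, both higher in *Fire*Δ/Δ mice, against 0.656% of all tested genes called. Iron handling held 11 tested genes and no call, with *Trf*, transferrin, at 0.30 ± 0.07 (limma adjusted p = 0.241) and *Fth1*, ferritin heavy chain, at 0.19 ± 0.06. No call was made in limma among 24 lysosomal genes, where *Cd63* had 0.37 ± 0.06 (limma adjusted p = 0.0827), 9 immediate early genes, 11 heat shock genes, 21 genes of the unfolded protein and integrated stress response, 15 glucocorticoid-responsive genes, 16 genes of glycolysis and lactate export or 13 receptors for growth factors and lipids.

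*Fos* and *Junb*, immediate early genes, had differences of 0.14 ± 0.02 and 0.079 ± 0.015 and passed in edgeR only (adjusted p = 0.00436 and 0.0199). The level of *Fos* was 0.0065 and 0.0078 in *Fire*+/+ mice and 0.20 and 0.095 in *Fire*Δ/Δ mice, and tissue was minced in actinomycin D, an inhibitor of transcription, before digestion. For TGF-beta, which microglia supply and which oligodendrocytes can sense, 9 pathway genes were tested and none passed. *Tgfbr1*, a receptor subunit, had 0.12 and 0.15 in *Fire*+/+ mice and 0.11 and 0.12 in *Fire*Δ/Δ mice, a difference of −0.01 ± 0.01. *Tgfb1* and *Tgfbr2* were below the detection filter, with UMIs in at most 1.91% and 0.669% of the cells of any hippocampus library.

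Most genes for cytosolic ribosomal proteins and all mitochondrially encoded respiratory chain genes had negative differences, none of them past the threshold. Of 79 cytosolic ribosomal protein genes, 75 were lower in *Fire*Δ/Δ mice, 60 of them in both batches, with a median of −0.072, and none passed; over all tested genes 55.9% were lower, 32.2% in both batches. All 13 mitochondrially encoded respiratory chain genes had negative differences, with a median of −0.11, 12 were lower in both batches, and none passed. Without Oligo1 cells the median of these 13 was −0.025 and 4 were above 0. The ribosomal genes had a median of −0.073 without Oligo1 cells, with 75 lower. The 79 nuclear respiratory chain genes had a median of −0.0028, with 37 above 0. With edgeR, 68 ribosomal and 13 mitochondrially encoded genes were lower. In the cortex the medians were −0.0090 for ribosomal and 0.018 for mitochondrially encoded genes. Within each batch the *Fire*+/+ library had the higher median mitochondrial share, 4.76% against 4.54% and 5.07% against 4.57%, and in batch 5 it also had the higher depth. The mitochondrial share is counted from mitochondrial UMIs, so it is no separate measure from the levels of the mitochondrially encoded genes. The part of depth in these differences, and of the mitochondrial share in the ribosomal ones, was not tested.

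**Figure D3:**
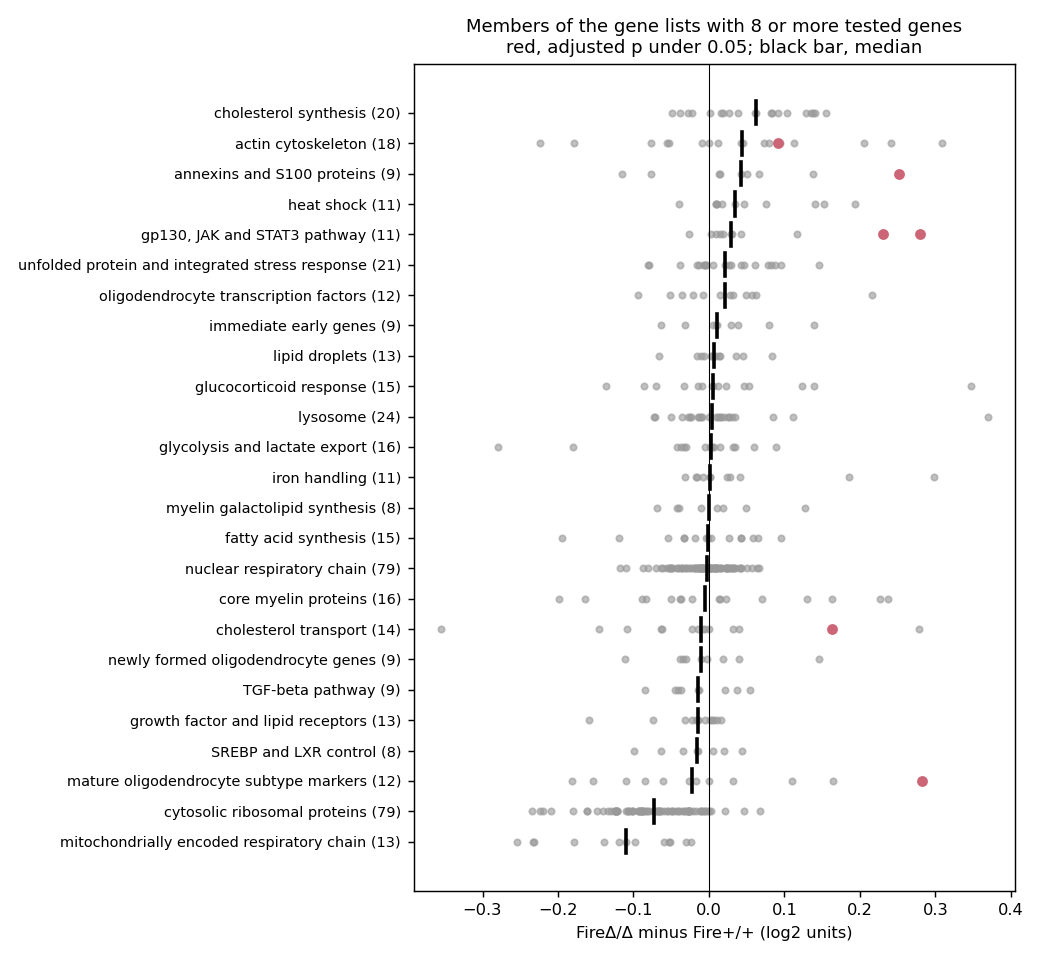
Genotype differences in log2 units (x axis) of the tested members of each list with at least 8 tested genes (number in brackets), red for genes with adjusted p under 0.05, with a black bar at the median. Medians run from −0.11 for mitochondrially encoded genes to 0.062 for cholesterol synthesis, and most red points lie far from the median of their list.

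The authors clustered oligodendrocytes into Oligo1 to Oligo4. In the hippocampus, Oligo1 held 0 of 2373 cells of *Fire*+/+ mouse 1 (3 cells would be 0.126%) and 6 of 1047 cells of mouse 4 (0.573%, 95% Clopper-Pearson interval 0.211% to 1.24%). In *Fire*Δ/Δ mice it held 859 of 2784 cells of mouse 3 (30.9%, 29.1% to 32.6%) and 448 of 1934 cells of mouse 6 (23.2%, 21.3% to 25.1%). Intervals cover counting error only. The mean was 0.287% ± 0.405 in *Fire*+/+ and 27.0% ± 5.44 in *Fire*Δ/Δ mice (SD, n = 2), and the two-sided exact permutation p was 0.333, the smallest that 2 against 2 mice allow. Oligo3 held 77.8% and 67.0% of *Fire*+/+ cells and 43.8% and 45.9% of *Fire*Δ/Δ cells, a difference of −27.6 percentage points with the same p. Oligo2, at 15.8% to 20.4%, and Oligo4, at 6.28% to 13.9%, overlapped between genotypes. In cells with at least 10000 UMIs neither overlapped. Oligo2 then held 22.7% and 21.5% of *Fire*+/+ cells and 20.5% and 19.5% of *Fire*Δ/Δ cells, and Oligo4 12.9% and 12.5% against 14.5% and 17.0%. Counted without the cluster labels, cells positive for *C4b* and *Serpina3n* together made up 0.0421% and 2.29% in *Fire*+/+ and 37.6% and 32.9% in *Fire*Δ/Δ mice. These genes had the largest genotype differences here and were among those by which the authors told Oligo1 apart. The count is therefore no independent check of the Oligo1 share.

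**Figure D4:**
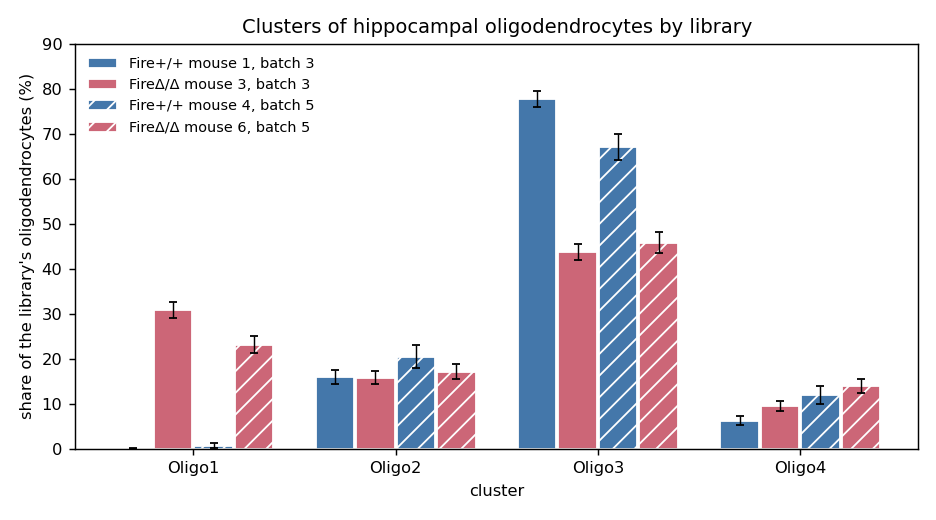
Share of each hippocampus library's oligodendrocytes (y axis, %) in Oligo1 to Oligo4, with 95% Clopper-Pearson intervals that cover counting error only. Oligo1 makes up 30.9% and 23.2% of the *Fire*Δ/Δ libraries and under 1% of the *Fire*+/+ libraries, and Oligo3 is lower in both *Fire*Δ/Δ libraries.

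To ask how much of the genotype difference lay outside Oligo1, the same fit was made on Oligo2 to Oligo4 cells. The clusters were built on the same genes, so leaving out Oligo1 removes the cells highest in *C4b* and its companions. In this fit 8 of 9141 genes passed (0.0875%), 7 higher (0.0766%) and 1 lower (0.0109%) in *Fire*Δ/Δ mice. All 31 genes called over all cells kept their sign, with a median of 51.1% of the difference left (range 17.9% to 98.3%), and 14 kept less than 50%. *C4b* had 0.046 and 0.12 in *Fire*+/+ mice and 0.97 and 0.76 in *Fire*Δ/Δ mice outside Oligo1, a difference of 0.78 ± 0.05 (limma adjusted p = 0.00274). *Serpina3n* had 0.012 and 0.051 against 0.29 and 0.26, a difference of 0.24 ± 0.02 with the same adjusted p. In edgeR the adjusted p of these genes was 0.101 and 0.113 without Oligo1, and without the batch block in limma it was 0.0651 for both. *Klk6*, *Cebpd* and *Sparc* also passed, at 0.14, 0.092 and 0.19. *Stat3* had 0.16 ± 0.02 and missed the threshold (limma adjusted p = 0.0686), as did *Anxa2* (0.046 ± 0.008) and *Tagln2* (0.016 ± 0.005), for which the least was left. *Il33* had 0.16 ± 0.06 over all cells and −0.24 ± 0.07 without Oligo1, neither past the threshold.

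Levels of *C4b* outside Oligo1 differed by cluster. In *Fire*Δ/Δ mice 3 and 6 they were 1.42 and 1.25 in Oligo2, 0.67 and 0.50 in Oligo3 and 1.59 and 1.04 in Oligo4, compared with 3.47 and 3.42 in Oligo1. In *Fire*+/+ mice it was at most 0.15 in each of these 3 clusters. *Serpina3n* was at 0.65 and 0.59 in Oligo2, 0.15 and 0.11 in Oligo3 and 0.36 and 0.34 in Oligo4 of *Fire*Δ/Δ mice. Among Oligo2 to Oligo4, *Klk6* had its highest levels in Oligo2 in both genotypes, 0.26 and 0.21 in *Fire*+/+ and 0.77 and 0.75 in *Fire*Δ/Δ mice. In Oligo3 cells alone no gene passed the threshold in limma, and 408 had an unadjusted p under 0.05.

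At least 90% of the difference was left without Oligo1 for 3 of the 31 genes: *9330117O12Rik*, *Gm47283* and *Tmem80*, a transmembrane protein. *9330117O12Rik* had 0.33 and 0.38 in *Fire*+/+ mice and 0.14 and 0.14 in *Fire*Δ/Δ mice, a difference of −0.22 over all cells and −0.21 without Oligo1. *Tmem80* had 0.21 and 0.21 against 0.38 and 0.38, with differences of 0.17 and 0.16, and *Gm47283* had 0.066 and 0.20 against 0.31 and 0.44, with 0.25 and 0.24. The libraries of the genotypes did not overlap for these 3 genes. *9330117O12Rik* and the raised gene *Piezo2*, a mechanically gated channel, are annotated on chromosome 18 (RefSeq, GRCm38.p6), which also carries *Csf1r*. *Gm47283* is placed by GENCODE on chromosome Y, although all mice were female. The mixed background of the mice was not resolved here, and the part of strain-derived sequence near *Csf1r* or elsewhere in these differences was not tested.

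**Figure D5:**
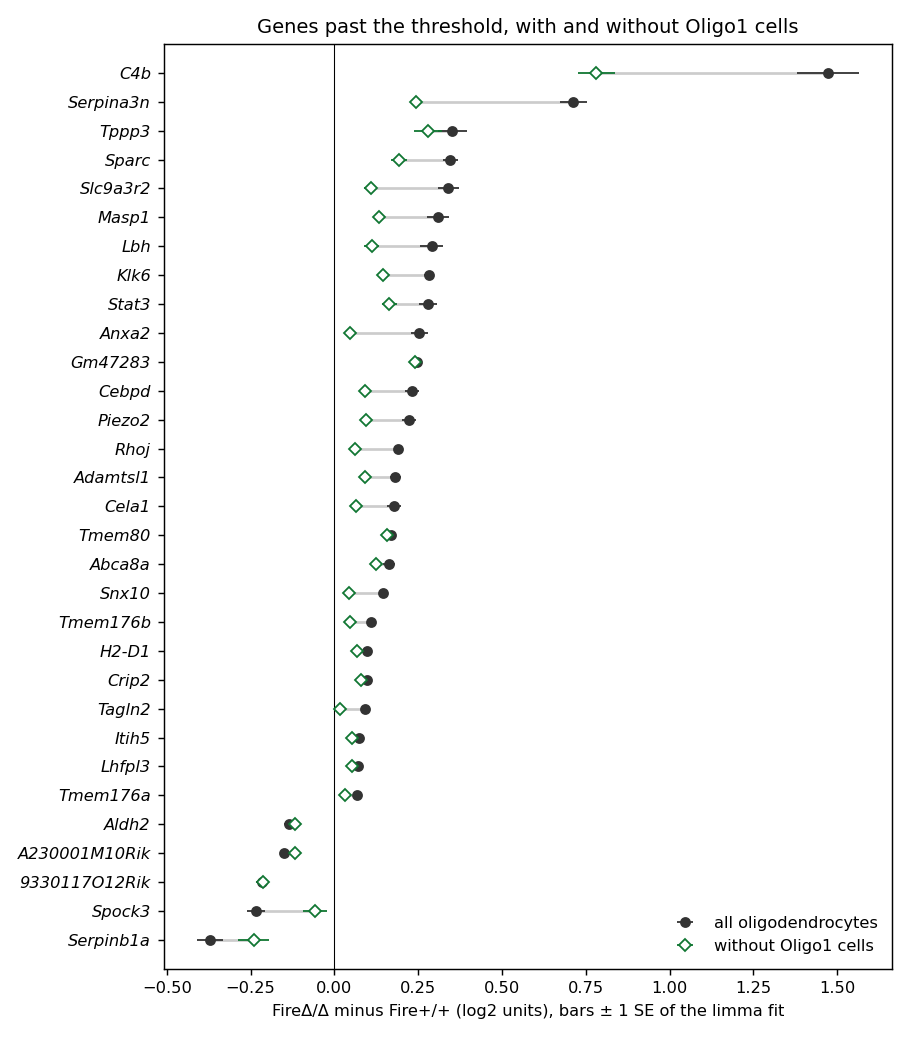
Genotype difference in log2 units (x axis, bars ± 1 SE of the limma fit) of the 31 called genes over all oligodendrocytes (filled circles) and without Oligo1 cells (open diamonds). The distance between the symbols is large for *C4b*, *Serpina3n* and *Anxa2* and small for *9330117O12Rik*, *Gm47283* and *Tmem80*.

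In the cortex of the same mice, 2 of 9348 genes passed the same fit (0.0214%), *C4b* and *Serpina3n*, both with limma adjusted p = 0.0344, and 725 had an unadjusted p under 0.05. The cortex libraries of mice 4 and 6 had median mitochondrial shares of 6.29% and 6.23%, those of mice 1 and 3 of 5.46% and 5.36%. Of the 31 hippocampal genes, 29 were tested in the cortex, 28 had the same sign there, and 26 had a smaller difference; these genes had been chosen by their hippocampal values. *C4b* differed by 0.88 and 1.05 in the 2 cortex batches against 1.69 and 1.25 in the hippocampus, and *Serpina3n* by 0.36 and 0.39 against 0.80 and 0.62. *Serpinb1a* had −0.069 and −0.086 in the cortex and *Spock3* had 0.074 and −0.066, against hippocampal differences of −0.38 and −0.36 and of −0.22 and −0.25. *Tppp3* and *Itih5* were among the genes whose mean difference was larger in the cortex.

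The test of whether the genotype difference itself differed between tissues, on each mouse's hippocampus minus cortex value, called none of 9393 genes in limma (0.0%), with 797 at an unadjusted p under 0.05, and 1 in edgeR, *Klk6*. The outcome depended on the variance model: with the variance trend taken over mean expression, 131 genes passed, 99 of them with a positive tissue difference. In the fit first chosen, the SE of *C4b* was 67.0, which gives no usable test for that gene, and its tissue difference was 0.81 for mice 1 and 3 and 0.21 for mice 4 and 6. On the log fold scale of edgeR the tissue difference of *Serpina3n* was −0.37 (edgeR adjusted p = 0.848), opposite in sign to the 0.34 of the log2 means. For *Serpinb1a* it was −0.31 and −0.27, the lowest p of that fit (−0.29 ± 0.02, limma adjusted p = 0.556). Of genes not called in the hippocampus, *Glul* had the largest negative value, −0.51, and *Rtn4*, a membrane protein of the endoplasmic reticulum, the largest positive one, 0.49, which came from mice 1 and 3 (0.92) and hardly from mice 4 and 6 (0.069). No call on a tissue difference is made from these values.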

How the data were processed

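Single oligodendrocyte transcriptomes were measured by 10x droplet sequencing in hippocampus and cortex of 4 female mice, 8 libraries in all. Cells had been dissociated in the presence of actinomycin D and sorted, with scatter gates against debris, erythrocytes and doublets, and no further doublet caller was run here. The authors aligned reads with Cell Ranger 5.0.0 to mm10, kept cells with oligodendrocyte markers, at least 5000 UMIs and at most 10% mitochondrial UMIs, and deposited log2(UMIs / size factor + 1) values for 18833 genes in 12581 cells. The authors' cell table gives total and mitochondrial UMI counts per cell and the size factor, a ratio to the average cell computed with scran, as deposited. The deposited log2 values were not batch-corrected; the authors applied batch correction before clustering, from which Oligo1 to Oligo4 come.

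UMI counts were recovered from the deposited log2 values and size factors, and all 42420937 values above 0 came out whole within 0.001. The hippocampus libraries held between 13940995 and 27848236 UMIs. Means of the log2 values per library were fitted with limma 3.58.1 (R 4.3.3, eBayes with a variance trend), genotype plus batch, for genes detected in 5% or more of the cells (mean of the 4 libraries), two-sided with Benjamini-Hochberg adjustment. The fit had 1 residual degree of freedom and a prior of 5.03, so calls rest largely on variance shared across genes. Batch paired the libraries, 1 of each genotype in each; the deviations of paired libraries from their genotype means had r = 0.735 over 9141 genes, and with 2 pairs this is the only correlation the design gives. The same fit was made without Oligo1 cells, in the cortex, and on each mouse's hippocampus minus cortex value; cluster shares were compared with exact permutation tests. edgeR 4.0.16 (quasi-likelihood, TMM factors) and DESeq2 1.42.0 on UMI sums, other filters, scales, centring and cell sets, fits without the batch block and fits without each library were alternatives. The robust prior variance, the cortex fit and the variance trend over the mean level were added after seeing the data. The scripts were tested on simulated data.

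Named genes were *Csf1r*, 3 TGF-beta genes, up to 15 genes per direction and test past the threshold whose genotypes did not overlap, the 10 largest differences of one sign in both batches where fewer than 10 passed, and members of the gene lists; genes with overlapping libraries, such as *Serpinb1a*, the other called genes, the 3 genes with at least 90% of the difference left and genes called by edgeR alone were named after their values were seen. The comparison and the lists were chosen with earlier results of these data known. Gene symbols were matched to GENCODE vM21 for 18526 of 18833 genes. Each library came from 1 mouse, and cells were not used as replicates.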

Additional observations from a re-analysis of the deposited data

How the results depend on the processing

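Each of the 31 genes called in the hippocampus that had a value kept its sign under every alternative, but the calls depended on the error model. There were 60 calls in edgeR, 78 in DESeq2, 88 and 136 on the log2 scale of the library mean plus 0.1 or plus 1, and 52 and 79 without haemoglobin-positive or microglial-marker-positive cells. All 31 were among these calls except *Itih5* in edgeR. Without the batch (replicate) block 3 genes passed, and without the variance trend 0 (883 at an unadjusted p under 0.05). Without the detection filter 0 of 18685 passed (1728 unadjusted). A robust prior variance gave 44 calls, 22 of them among the 31 and neither *C4b* nor *Serpina3n* among them. With 1 library left out, and thus no batch term and a lone library assumed to vary like the others, there were 51 to 121 calls: 86 without *Fire*+/+ mouse 1, 121 without *Fire*+/+ mouse 4, 57 without *Fire*Δ/Δ mouse 3 and 51 without *Fire*Δ/Δ mouse 6, of which 23, 29, 24 and 20 were among the 31. *Abca8a*, *Serpinb1a*, *Spock3*, *Tmem80* and *Tppp3* were lost in 3 or 4 of these 4 fits.

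Without Oligo1 the 8 calls became 22 with Oligo2 to Oligo4 weighted equally, 3 in edgeR (513 unadjusted), 5 with the filter at 10%, 0 in Oligo3 alone (408 unadjusted) and 0 without the replicate block (94 unadjusted). With 1 library left out there were 16 to 62 calls: 37 without *Fire*+/+ mouse 1, 62 without *Fire*+/+ mouse 4, 20 without *Fire*Δ/Δ mouse 3 and 16 without *Fire*Δ/Δ mouse 6. Of the tissue differences, 1 passed in edgeR (740 unadjusted) and 131 with the variance trend over the mean level, and that of *Serpina3n* was −0.37 in edgeR. Of 497 tested members of the gene lists, 10 were called (against 0.339% of all tested genes), and 3 without the block, 20 in edgeR (against 0.656%) and 4 without Oligo1 (against 0.0875%). The lists were written with earlier results of these data known, so these counts are no test of them. The median of the mitochondrially encoded genes was −0.11 and, without Oligo1, −0.025.

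The Oligo1 difference of 26.7 percentage points was 30.1 in cells with at least 10000 UMIs. With 1 library left out, the genotype difference of the Oligo2 share in hippocampus ranged from −3.96 to 0.55 percentage points, above 0 without *Fire*+/+ mouse 4. That of the Oligo4 share in hippocampus ranged from −0.23 to 5.43 percentage points, below 0 without *Fire*+/+ mouse 1.

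Differences of genes not called turned with 1 library left out, over ranges of −1.10 to 0.39 for *Apoe*, −0.042 to 0.068 for *B2m*, −0.15 to 0.42 for *Hmgcs1*, −0.32 to 0.64 for *Il33*, −0.039 to 0.096 for *Il6st*, −0.069 to 0.074 for *Jak2*, −0.12 to 0.072 for *Lifr*, −0.11 to 0.036 for *Mbp*, −0.076 to 0.19 for *Myrf*, −0.055 to 0.013 for *Olig2*, −0.021 to 0.076 for *Sox10*, −0.0080 to 0.27 for *Sqle* and −0.022 to 0.62 for *Trf*. Without Oligo1 the ranges were −0.72 to 0.24 for *Il33* and −0.51 to 0.026 for *Serpinb1a*. With Oligo2 to Oligo4 weighted equally, *Apoe* had 0.023, *Hmgcs1* −0.0090, *Olig2* 0.030, *Ptgds* 0.24 and *Il33* 0.00064. *B2m* had −0.00019 without haemoglobin-positive cells, and *Jak2* −0.0076 without microglial-marker-positive cells. The cause of these changes was not tested.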

Other observations

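Several groups of genes without a call differed between batches or tissues in their medians. The 11 tested heat shock genes, chaperones that respond to unfolded protein, had a median genotype difference of 0.14 in batch 3 and of −0.022 in batch 5, and 2 were higher in both. The 16 core myelin genes had medians of −0.049 and −0.0014 in these batches of the hippocampus and of 0.070 over the cortex libraries. For the 15 fatty acid synthesis genes the medians were 0.049 and −0.012 in the hippocampus and 0.065 in the cortex, and for the 79 nuclear respiratory chain genes −0.024 and 0.013 against 0.044. Over all genes tested the medians were 0.00062 and −0.0055 in the batches of the hippocampus and 0.0051 in the cortex. No test of a list was made.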
